A study of Drosophila melanogaster with 3 samples.

Results

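The V-ATPase subunit genes are the 26 protein-coding genes of the Ensembl BDGP6 annotation whose symbol is Vha followed by a digit or by AC, of 13945 protein-coding genes on the 6 chromosome arms that the data cover. The choice rests on gene symbols and uses no measured value, but it was made with earlier results of these data known. Regions that co-precipitate with the Sox transcription factor Sox100B were mapped by chromatin immunoprecipitation and sequencing in 3 biological replicates, which form 1 group. The embryos were whole, of both sexes and 6 to 16 h old, and came from a transgenic line with GFP at the C terminus of Sox100B. The antibody field names Sox100B, whereas the free text of each sample mentions an input control. The samples are treated here as immunoprecipitates, and the control experiment that the labels list was not analysed here. Whole embryos mix all cell types, so a region present in a few cells and one weakly occupied in many cannot be told apart. There is no second condition, and every comparison below is a description without a test.

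The V-ATPase is a proton pump of several subunits that acidifies endosomes, lysosomes and secretory vesicles and, at the plasma membrane of epithelia such as the Malpighian tubule, energises ion transport. Its peripheral V1 sector hydrolyses ATP, and its membrane sector V0 carries the protons. In Drosophila several subunits are encoded by paralogous genes, numbered 1, 2 and on after a hyphen, which differ in the tissues that express them.

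A gene counts as having a summit when the highest point of a region lies in the gene body or up to 1 kb upstream. The regions come from 5 lists: the 5683 regions that passed the irreproducible discovery rate (IDR), a procedure that keeps regions ranked alike in replicates, and 4 longer lists of 30000 regions each, 1 for the pooled reads and 1 for each replicate. The longer lists hold background by design, with q-values of up to 0.502 in the pooled list, against at most 0.00397 in the IDR list. Regions were ranked by the deposited signal within each list, rank 1 being the strongest. The number of reads behind a region is unknown.

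The sequences shown here are those of Vha100-2, which has the strongest region of all members, and of Vha68-1, whose strong region came from 1 replicate. The first is at the weaker IDR region of Vha100-2, with rank 3473. The summit of its strongest region, with rank 496, is not shown. The printed sequences are genomic DNA of release 6, read on the minus strand, on which both genes are transcribed, and hold no exon bases. In the first, capitals mark a GATA word (TGATAG read on the other strand), and in the second GAGAG read on the other strand. The third holds none of the short words that were searched. The first window is centred on a summit at 3R:18399353-18399553, the second is the gap between the opposed start sites of Vha100-2 and Vti1b at 3R:18396929-18396994, and the third is centred on the replicate 3 summit at 2L:13004127-13004327.
Vha100-2 upstream summit: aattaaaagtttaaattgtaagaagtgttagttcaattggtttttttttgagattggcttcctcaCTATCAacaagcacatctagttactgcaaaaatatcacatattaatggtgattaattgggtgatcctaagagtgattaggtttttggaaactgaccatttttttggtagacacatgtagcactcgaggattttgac
Vha100-2 to Vti1b gap: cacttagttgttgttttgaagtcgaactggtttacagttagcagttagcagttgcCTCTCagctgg
Vha68-1 upstream summit: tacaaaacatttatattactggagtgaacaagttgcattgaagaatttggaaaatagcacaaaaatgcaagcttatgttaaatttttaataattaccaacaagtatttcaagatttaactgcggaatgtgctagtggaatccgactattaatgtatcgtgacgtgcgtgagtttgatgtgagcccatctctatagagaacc
The summit windows of Vha100-2 and Vha68-1 are 32.3% and 33.8% G and C, and the gap between the start sites is 43.9%.

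Few V-ATPase genes had a reproducible Sox100B-GFP region. Of the 26 genes 2 had an IDR summit, Vha100-2 and Vha16-1, which is 7.69% with an exact (Clopper-Pearson) 95% interval of 0.946 to 25.1%. Over all genes 3106 had one, or 22.3%. Among genes of like length, taken as all genes in the same 20 length bins and weighted as the members fall into them, the share was 19.0%, at which 4.95 of 26 members would have a summit. The members' interval includes both shares, and a difference from either was not tested. This interval and those below treat genes as independent draws with equal chances, although members differ in length and so in the share of their bin. They count genes only, take no account of read depth and serve as a description, also where an interval leaves out a share.

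The pooled list contains the IDR regions at the same ranks, so its counts include theirs and give no separate support. Its order was the same. With the pooled regions of q under 0.05, of which there were 9948, 4 members had a summit, or 15.4% (exact interval 4.36 to 34.9%), against 25.2% of genes of like length and 29.0% of all genes. With all 30000 pooled regions 8 members had one, or 30.8% (14.3 to 51.8%), against 37.9% of genes of like length and 41.8% of all genes. Those 8 were Vha100-2, Vha100-5, Vha13, Vha14-2, Vha16-1, Vha16-3, Vha44 and Vha68-2. Counted by density, the windows of the 26 genes add up to 108 kb and held 4 IDR summits, or 3.69 per 100 kb, against 5.18 per 100 kb in the windows of all genes. For all pooled regions the members held 20 summits, or 18.5 per 100 kb, against 23.6 over all genes. On each of these counts the V-ATPase genes lay below the genes they are set beside, and for the shares the margin was within the interval.

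The replicates varied in which further members they added. Among the 5683 strongest regions of each replicate, members with a summit numbered 2 in replicate 1, 3 in replicate 2 and 4 in replicate 3, where all genes gave 23.8%, 24.3% and 25.3%. The mean was 3.00 ± 1.00 of 26 members (SD, n = 3), and genes of like length averaged 21.6 ± 0.854%. Vha100-2 and Vha16-1 were the members found in all 3 replicates at this depth. Replicate 2 added Vha13, and replicate 3 added Vha36-1 and Vha68-1. With the regions of q under 0.05 in each replicate 2, 5 and 6 members had a summit, where all genes gave 29.4%, 32.7% and 30.2% and genes of like length 26.0%, 29.3% and 27.0%. In replicate 1 the members' share of 7.69% had an interval of 0.946 to 25.1%, which lies below both shares, whereas in replicates 2 and 3 the intervals of 6.55 to 39.4% and 8.97 to 43.6% include them. In the full lists of 30000 regions 10, 9 and 13 members had a summit in replicates 1, 2 and 3, or 38.5%, 34.6% and 50%, where all genes gave 47.4%, 48.7% and 49.8%. A summit in all 3 full lists was found for 5 members, or 19.2%, against 32.9% of genes of like length and 36.8% of all genes. In exactly 2 it was found for 4, or 15.4%, against 11.5% and 10.9%, and in exactly 1 for 9, or 34.6%, against 14.5% and 13.7%. The remaining 8, or 30.8% against 41.1% and 38.6%, had no summit in any of these lists or in the pooled list, and they were Vha100-1, Vha14-1, Vha16-4, Vha16-5, Vha36-3, Vha68-3, VhaAC39-1 and VhaAC45.

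**Figure D1:**
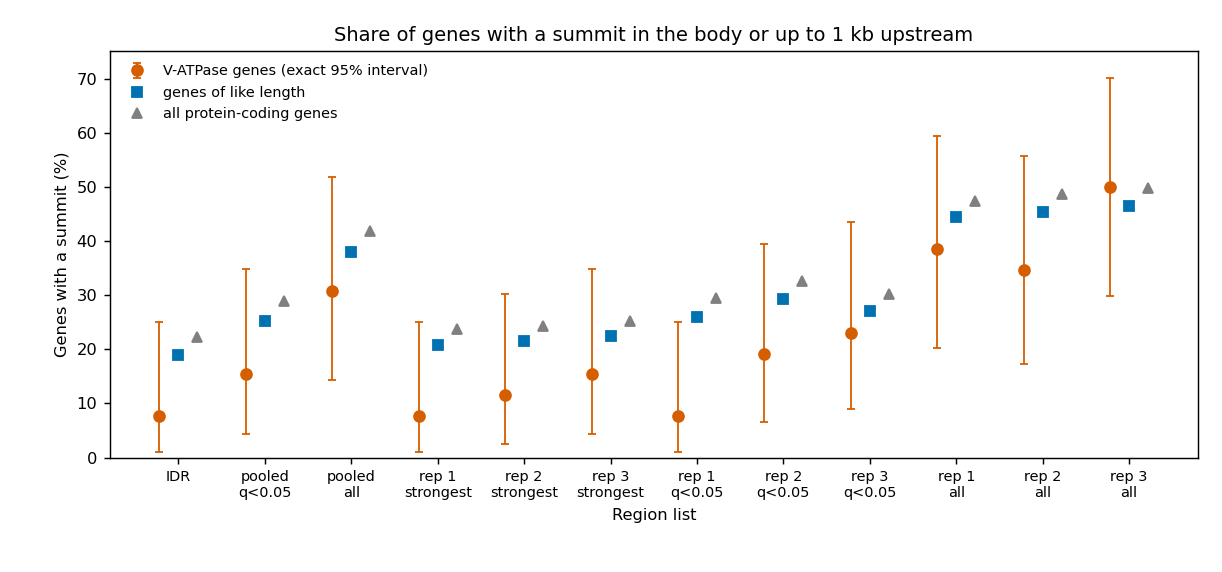
Share of genes with a summit in the gene body or up to 1 kb upstream (y axis, percent) for 12 sets of regions (x axis), with V-ATPase genes as circles with exact 95% intervals, genes of like length as squares and all protein-coding genes as triangles. The V-ATPase share is below both others in the IDR list (7.69% against 19.0% and 22.3%) and in every other set except the full list of replicate 3, where it is 50% against 46.4% and 49.8%.

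The plot of these shares shows the circles below the squares in every set except the full list of replicate 3. The interval excludes the share of genes of like length in 1 set, the regions of q under 0.05 of replicate 1, and includes it in the others. Sets drawn from the same list overlap, so they are not separate results.

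By sector, the IDR summits counted here fell on V0 genes. Both genes with one encode V0 subunits, so 2 of 12 V0 genes had an IDR summit, against 18.9% of genes of like length, and 0 of 12 V1 genes, against 19.8%. The accessory subunit genes VhaAC45 and VhaAC45RP, 2 in number, had 0. In the pooled list 4 of 12 V0 genes had a summit, against 38.5% of genes of like length, and 4 of 12 V1 genes, against 38.1%. The members that single replicates added, Vha13, Vha36-1 and Vha68-1, are V1 genes, as are Vha13 and Vha44, which the pooled regions of q under 0.05 added. Counting summits within 1 kb of a start site, or any overlap of a region, marked the V1 gene Vha14-1, and giving summits to the nearest start site marked the accessory gene VhaAC45RP. The difference between sectors in the IDR list rests on 2 genes, depends on these choices and was not tested.

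**Figure D2:**
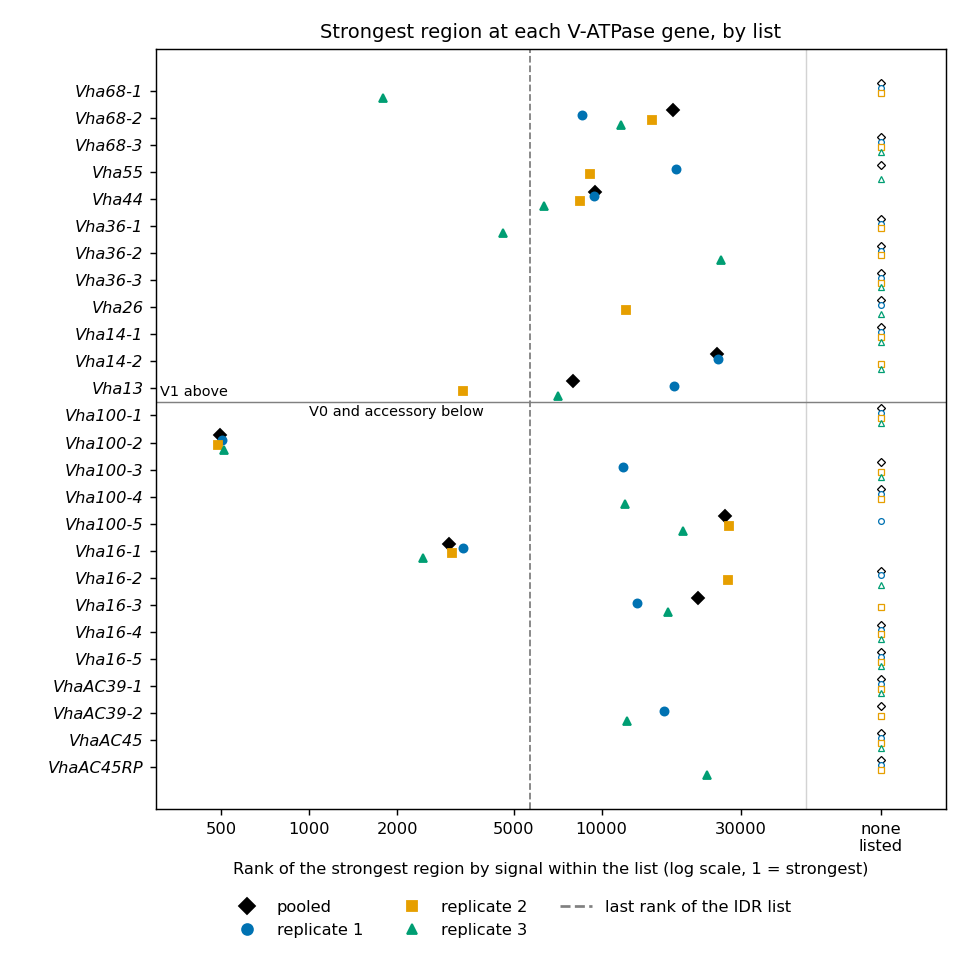
Rank of the strongest region with its summit at each V-ATPase gene (x axis, log scale, 1 = strongest) in the pooled list (diamonds) and in replicates 1 to 3 (circles, squares, triangles), with genes in rows by subunit and open symbols at the right for a list with no region. The dashed line is rank 5683, the last of the IDR list; only Vha100-2 (ranks 487 to 514) and Vha16-1 (ranks 2447 to 3362) lie left of it in all 4 lists.

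The plot of ranks by gene separates Vha100-2 and Vha16-1, whose symbols cluster tightly, from genes such as Vha13 and Vha68-1, where 1 replicate lies far to the left of the others.

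Vha100-2 (FBgn0028670) encodes a form of subunit a, the large V0 protein that lines the proton path. It lies at 3R:18390323-18399169 on the minus strand and is, at 8847 bp, the second longest member. It had 2 IDR summits. The stronger region, 3R:18397031-18397385, ranked 496 in the IDR list with a q-value of 0.000187, and the regions that overlap it had ranks of 505, 487 and 514 in replicates 1, 2 and 3. The 3 ranks lie close together, and the replicate summits fell 12, 0 and 23 bp from the pooled one. This summit is in an intron of Vha100-2, 286 bp upstream of the inner of its 2 annotated start sites. It is also in the 5′ UTR of Vti1b, a gene for a SNARE protein of vesicle fusion that is read in the opposite direction, 219 bp from that gene's start.

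The other IDR region of Vha100-2, 3R:18399221-18399684, had its summit 284 bp upstream of the outer start site, where the first sequence above is centred. It ranked 3473 with a q-value of 0.000720. The overlapping regions ranked 3634, 3326 and 5344 in the replicates, with q-values of 0.00124, 0.000149 and 0.00702 and summits 3, 3 and 78 bp away. Replicate 3 was the weakest here and close to the end of its strongest 5683. This summit lies in an intron of Vti1b, whose body overlaps that of Vha100-2 by 2175 bp. The closest start sites of the pair are 67 bp apart, with the second sequence above between them. Both IDR summits are thus counted for Vti1b as well, and with summits of more than 1 gene left out Vha100-2 had 0.

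Other regions at Vha100-2 were weaker in the pool or came from 1 replicate. Another pooled region, at 3R:18397994-18398457, ranked 25623 with a q-value of 0.422. It overlaps a region of replicate 2 with rank 8263 and a q-value of 0.0176 whose summit lies 192 bp away. It also overlaps a region of replicate 3 with rank 13161 and a q-value of 0.205 whose summit lies 4 bp away. Replicate 3 alone had a region at 3R:18393526-18393981, 3174 bp downstream of the inner start site, with rank 5413 and a q-value of 0.00748. It overlapped no region of any other list.

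**Figure D3:**
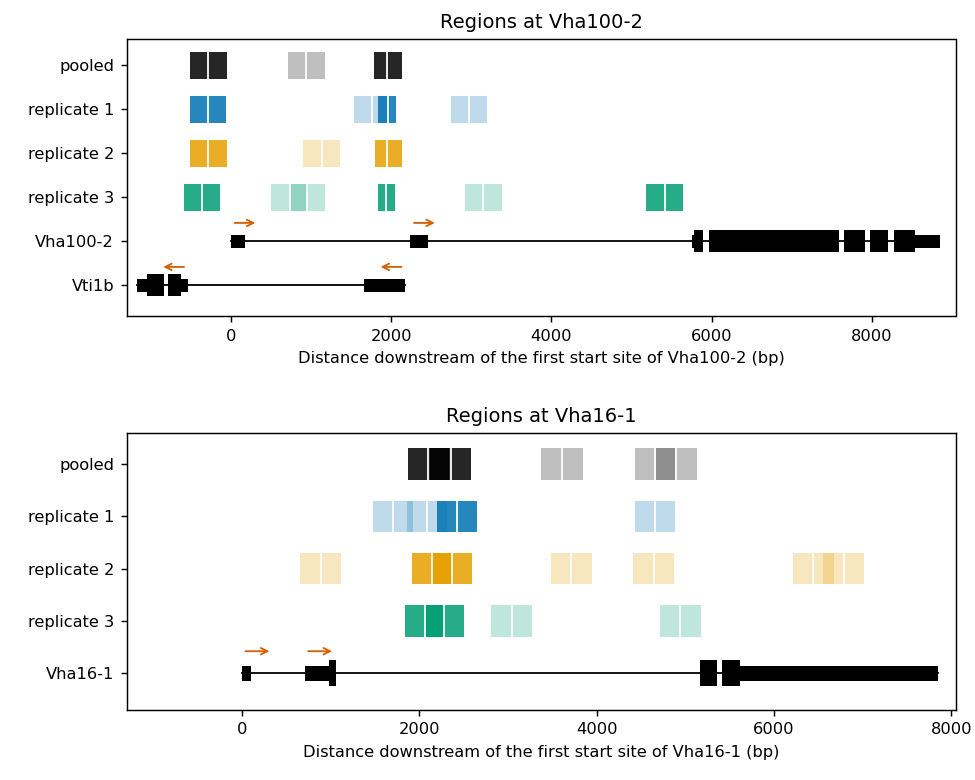
Regions with a summit at Vha100-2 (top) and Vha16-1 (bottom) in the pooled list and replicates 1 to 3, against the distance downstream of the gene's first start site in bp (x axis). Dark boxes are among the 5683 strongest of their list, pale boxes are weaker, white lines are summits, thick and thin black boxes are coding and untranslated exons and arrows are start sites; at Vha100-2 a dark box stands just upstream of each of its 2 start sites in all 4 rows, and at Vha16-1 dark boxes stand in its long intron.

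The map of both genes shows where their IDR regions differ: those of Vha100-2 have their summits just upstream of its start sites, inside the body of Vti1b, while those of Vha16-1 lie in an intron over 1 kb from a start site. Weaker regions and those of single replicates depart from this, among them the downstream region of replicate 3 at Vha100-2 and a region of replicate 2 at Vha16-1, 2R:6631972-6632435, with rank 10334, a q-value of 0.0493 and its summit 180 bp downstream of the inner start site.

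Vha16-1 (FBgn0262736) encodes the proteolipid subunit c, copies of which form the rotating ring of V0. It lies at 2R:6625242-6633090 on the minus strand and spans 7849 bp, which makes it the third longest member. Its 2 IDR regions lie side by side in an intron, at 2R:6630503-6630966 with rank 3001 and at 2R:6630755-6631218 with rank 3948. Their q-values were 0.000500 and 0.00114. The summits are 1649 and 1397 bp downstream of the inner start site, and no other protein-coding gene shares them. At the stronger region the replicates ranked 3362, 3069 and 2447, with summits 68, 9 and 77 bp from the pooled one. At the neighbouring region the replicates spread more, since their own regions there ranked 10627, 4479 and 3488, so that replicate 1 fell outside its strongest 5683. At a minimum overlap of 1 bp each of the 4 IDR regions at members met a strongest region of all 3 replicates, for this region only through the neighbouring region of replicate 1 with rank 3362. When the overlap had to cover 50% of both regions, 3 of the 4 did. The pooled list held 3 further intronic regions, with ranks of 8585, 8948 and 18298 and q-values of 0.0285, 0.0351 and 0.255.

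Of 5 Vha100 genes 1 had an IDR summit, where genes of like length gave 26.7%, and of 5 Vha16 genes 1, where they gave 12.8%. A single gene of 5 is near these shares and near the 22.3% of all genes, so the counts set neither family apart. The number that the marked gene carries differs between the families, 2 for Vha100 and 1 for Vha16. Vha100-1, the form of subunit a known from nerve terminals, is 6788 bp long and in the same length bin as Vha100-2, yet it had no summit in any list. Its nearest IDR summit lay 5936 bp from its window, at Ctl2. Vha100-4 lies only 517 bp from Vha100-2 and had a single region, in replicate 3, with rank 12051 and a q-value of 0.168. Vha100-3 had a single region in replicate 1, with rank 11824 and a q-value of 0.128. Vha100-5 had pooled rank 26502 and ranks of 27250 and 18903 in replicates 2 and 3. None of these 3 reached a q-value under 0.05 in any list.

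Among the Vha16 paralogs, Vha16-2 and Vha16-3 lie 985 bp apart. Vha16-3 ranked 21302 in the pooled list (q-value 0.329), 13175 in replicate 1 and 16822 in replicate 3, while Vha16-2 had rank 27107 in replicate 2 alone. Vha16-4 and Vha16-5 had no region. These paralogs are short, from 567 to 725 bp, whereas Vha16-1 is 7849 bp, so genes of this family differ in the length open to a summit as well as in their regions. VhaAC39-1 and VhaAC39-2 encode subunit d, which joins the rotor of V1 to the ring. VhaAC39-1 had no region, and VhaAC39-2 ranked 16353 in replicate 1 and 12169 in replicate 3 and was absent from the pooled list.

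Over all families, genes with no paralog number or the number 1 were set beside those numbered 2 and above. Of 12 genes in the lower-numbered class 1 had an IDR summit, against 21.9% of genes of like length, and of 14 in the higher-numbered class 1, against 16.6%. The 2 classes held 9 and 11 summits of the full pooled list. In the strongest regions of replicates 1, 2 and 3 the lower-numbered class had 1, 2 and 3 genes of 12, and the higher-numbered class 1 of 14 in each. The means were 2.00 ± 1.00 and 1.00 ± 0 genes (SD, n = 3), where all genes averaged 24.5%. This SD is a spread over replicates and does not measure a difference between gene classes, which was not tested. The difference in means came from Vha13, Vha36-1 and Vha68-1, each marked in 1 replicate by a region that no other list held. The classes also differ in median length, 2779 and 1642 bp, and no like-length share was computed for these averages. With pooled regions of q under 0.05, 3 genes of the lower-numbered class had a summit, Vha13, Vha16-1 and Vha44, against 28.6% of genes of like length, and 1 of the higher-numbered class, against 22.3%. The 3 of 12 are near the share of their like-length genes.

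None of the V1 genes had an IDR summit, and 5 of them, Vha13, Vha36-1, Vha44, Vha55 and Vha68-1, had a summit of q under 0.05 in at least 1 list. The share of all genes with such a summit in at least 1 list was not computed. Single lists gave 29.0% of all genes for the pool and 29.4%, 32.7% and 30.2% for the replicates. A count over several lists cannot be lower than in any of them, so these shares are no like comparison for the 5. Whether the 5 set V1 genes apart was not tested. Vha44 encodes subunit C, a stator protein, and is the longest member at 11825 bp, at 2R:16324813-16336637. Its strongest pooled region ranked 9480 with a q-value of 0.0416, and the replicates ranked 9445, 8406 and 6378 with q-values of 0.0710, 0.0199 and 0.0183. Each replicate thus had a region there outside its strongest 5683, with a q-value under 0.05 in replicates 2 and 3 but not in replicate 1. The pooled summit is 225 bp downstream of the outer start site, and a further one with rank 10003 is 146 bp upstream of it. Both also lie in the window of Hmgs, a gene for an enzyme of the mevalonate pathway read in the opposite direction. The replicate 2 region of rank 8406 has its summit at the further pooled summit, 371 bp from the first. Another region of replicate 2, with rank 10268 and a q-value of 0.0478, has its summit between the 2 pooled summits, 86 bp downstream of the outer start site. An IDR region with rank 1239, 380 bp from a start site of Hmgs, lies 1045 bp beyond the window of Vha44.

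Vha13 encodes subunit G, another stator protein, and spans 3R:19643018-19644386. It ranked 7967 in the pooled list with a q-value of 0.0193, and 17684, 3356 and 7116 in the replicates, with q-values of 0.269, 0.000149 and 0.0271. Replicate 2 stands apart because its strongest region is another one. The pooled summit lies in the 3′ UTR, 1350 bp downstream of the start, and is also upstream of the neighbouring gene subdued, whereas the region of replicate 2 lies 355 bp upstream of Vha13 in sequence shared with Nup58. That region overlapped no region in any other list. Replicate 2 also had a region at the pooled one, with rank 8256, a q-value of 0.0175 and its summit 94 bp from the pooled summit, outside the window of Vha13.

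Vha68-1, Vha68-2 and Vha68-3 encode subunit A, the catalytic subunit of V1. Vha68-1 had a strong region in replicate 3, rank 1791 with a q-value of 0.000172, whose summit is 120 bp upstream of its start and also in the window of mTor. No region of replicate 1, replicate 2 or the pool overlapped it. Vha68-2 had 4 pooled summits around its start sites, at most 454 bp away, with q-values of 0.236 to 0.462 and a best rank of 17585. Its replicates ranked 8568, 14878 and 11693, with q-values of 0.0514, 0.158 and 0.158, so each replicate had a region there and none passed 0.05. Vha68-3 lies 178 bp from Vha68-2 and had none. The 3 genes also stand far from the nearest IDR summit, 68857, 95357 and 92671 bp from their windows for Vha68-1, Vha68-2 and Vha68-3.

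The other V1 genes had regions in single replicates at most, except Vha14-2 and Vha55. Vha55 encodes subunit B, the nucleotide-binding partner of subunit A. It ranked 17991 in replicate 1 and 9123 in replicate 2, with q-values of 0.277 and 0.0281, and was absent from replicate 3 and from the pool. Vha36-1 encodes subunit D, the central shaft, and had 1 region in replicate 3, rank 4588 with a q-value of 0.00294, with its summit 35 bp upstream of the start and also in the window of CG8187. Its paralog Vha36-2 had rank 25686 in replicate 3 only, and Vha36-3 had none. Vha26, for the stator subunit E, had rank 12152 in replicate 2 only, with a q-value of 0.0860. Vha14-2, of the subunit F family, ranked 24725 in the pooled list (q-value 0.405) and 25020 in replicate 1. That pooled region also overlapped stronger regions of replicates 1, 2 and 3, with ranks of 9229, 9192 and 7380. Their q-values were 0.0667, 0.0287 and 0.0318, and their summits lay 242, 209 and 231 bp farther upstream, outside the window. The paralog Vha14-1 had no summit. VhaAC45, the accessory protein of the membrane sector, had no region, and VhaAC45RP, named as related to it, had rank 22889 in replicate 3 with a q-value of 0.483.

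Strong regions of 1 replicate that no other list holds were uncommon in the lists as a whole. Among the 5683 strongest, 45 in replicate 1, 58 in replicate 2 and 110 in replicate 3 overlapped no region of any other list, or 0.792%, 1.02% and 1.94%. These are shares of regions, and the share of all genes with such a region is not given here, so they do not show whether members hold more of them. The regions at Vha13, Vha36-1 and Vha68-1 and the downstream region of replicate 3 at Vha100-2 are of that kind. The pooled list was made from the same replicates, and why it lacks these regions was not tested. The 3 members that single replicates added to the count of strongest regions therefore rest on regions with no counterpart elsewhere.

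Some members without an IDR summit lay close to one. Over the 24 such members the distance from the window to the nearest IDR summit was 215 to 95357 bp with a median of 10087 bp, near the median of 11373 bp over the 10839 genes without an IDR summit. The nearest was at Vha14-1, where the region 2R:15678928-15679442, rank 199, overlaps the 3′ end of the gene but has its summit 215 bp outside it and 255 bp from the start of Gmppa. At VhaAC45RP the region 3R:30164077-30164540, rank 4541, has its summit 383 bp outside the window, downstream of the gene, and that gene has the nearest start site, 2110 bp away. Vha100-5 also has the start site nearest to an IDR summit, rank 4808 and 2735 bp upstream. Giving each summit to the gene with the nearest start site therefore marked 3 members, Vha100-5, Vha16-1 and VhaAC45RP, and gave the summits of Vha100-2 to Vti1b.

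Both marked genes are among the longest members. The share of all genes with an IDR summit was 4.30% in the shortest and 65.3% in the longest of the 20 length bins. The V-ATPase genes have a median length of 2217 bp, near the 2166 bp of all genes, but the 2 longest bins, which hold genes of 14601 bp and over, contain 0 of them. Vha100-2 and Vha16-1 fall in the bin of 6458 to 9146 bp, in which 33.7% of all genes had a summit and which holds 3 members, Vha100-1 among them. Of all members only Vha44, in a bin with 44.3%, is longer.

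**Figure D4:**
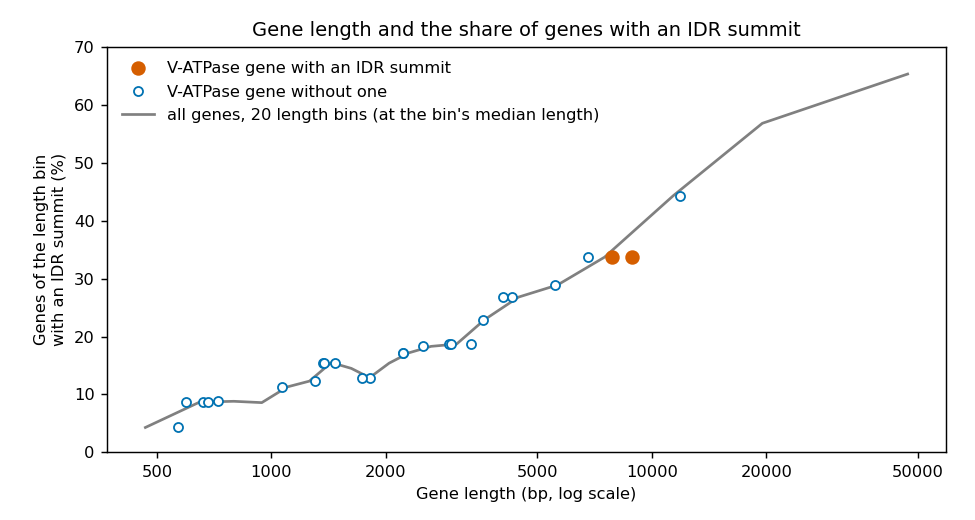
Share of genes with an IDR summit in each of 20 length bins (y axis, percent) against gene length (x axis, bp, log scale). The line joins all genes' shares at the bin medians, from 4.30% to 65.3%, and each circle is a V-ATPase gene placed at its own length and its bin's share, filled for Vha100-2 and Vha16-1, which have an IDR summit, and open for the 24 without.

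The plot of length against share shows both filled circles at the right, with the open circles of Vha44 and Vha100-1 on either side of them and all shorter members open.

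By chromosome arm, the 26 genes are spread as 5 on 2L, 8 on 2R, 2 on 3L, 9 on 3R and 2 on X, with 1 gene with an IDR summit on 2R and 1 on 3R.

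Short sequence words were searched on both strands within 100 bp of the 4 IDR summits at members and in windows from 250 bases before to 50 after the start of each gene. Matches are descriptions and say nothing of which factor is bound. CACGTG, the E-box bound by Mitf, a known activator of V-ATPase genes, lay in 2 of 26 member promoters, those of Vha44 and VhaAC45RP, 47 and 173 bp upstream of the start, against 4.20% of all promoters. TCACGTGA, which contains it, lay in 1, that of Vha44, against 0.172% of all. Neither lay at any of the 4 member summits, nor did TATCGATA, the word bound by DREF, which occurred in 1 member promoter, that of Vha55, 189 bp upstream, against 9.36% of all. The Sox core word ACAAAG or its variant ACAATG lay at 0 of 4 member summits, against 24.9% of all IDR summits, and in 6 of 26 member promoters, or 23.1%, against 31.3% of all.

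GATA words, of the form A or T, then GATA, then A or G, lay at all 4 member summits, against 42.1% of all IDR summits. Each of the 2 summits of Vha100-2 had 1 match and each of the 2 of Vha16-1 had 4. In promoters the GATA words were in 13 of 26 members, or 50%, against 46.7% of all genes. GAGAG lay at 2 of 4 member summits, against 19.2% of all IDR summits, and in 8 of 26 member promoters, or 30.8%, against 29.7% of all. The member summit windows were 33.3% and 32.3% G and C at Vha100-2 and 36.8% and 38.3% at Vha16-1. These are 4 summits from 2 genes, and the differences from the whole list were not tested.

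The V-ATPase genes outside the symbol rule added 1 gene with IDR summits. Of 8 such subunit and accessory genes, VhaM9.7-b, for the small V0 subunit e, had 2 IDR summits, where genes of like length gave 12.6%. Its stronger region lay 265 bp upstream of the start, at 3L:21539365-21539828, in intergenic sequence with rank 1877, and the replicates ranked 2558, 1948 and 1883. All 34 Vha genes together then had 3 with an IDR summit, against 17.5% of genes of like length, and all 3 encode V0 subunits. VhaSFD, for the V1 subunit H, had regions ranked 6611, 7212 and 5610 in the replicates but no pooled region. VhaPPA1-1, for a proteolipid of the ring, ranked 4175 and 10523 in replicates 1 and 2 and had none in replicate 3. VhaM9.7-a had 2 pooled regions and no IDR region, and VhaM9.7-c ranked 4271, 22600 and 15281 in the replicates. ATP6AP2, the accessory protein listed as VhaM8.9, ranked 2742 and 4256 in replicates 2 and 3 and was absent from replicate 1 and the pool. VhaPPA1-2 and VhaM9.7-d had no region in any replicate or in the pool.

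Of 5 regulators and partners of the pump, 2 had IDR summits, against 49.7% of genes of like length. Mitf, on chromosome 4 and 25616 bp long, had 4 IDR summits with ranks of 1388 to 3788, and its best replicate ranks were 952, 1862 and 2019. Rbcn-3A, for a protein of the complex that assembles the pump, had 1 IDR summit 185 bp upstream of its start with rank 5398, and the replicates ranked 7399, 4566 and 6248. Its partner gene Rbcn-3B had no region, and the exchanger genes Nha1 and Nha2 had 2 and 1 pooled regions and no IDR region.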

How the data were processed

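Chromatin immunoprecipitates of 3 replicates of 1 group were analysed from 5 deposited region lists on dm6. Per the file headers, the 4 lists of 30000 regions hold peaks with background for IDR, and the fifth holds regions that passed the optimal IDR threshold. What aligner and peak caller were used, and at what IDR threshold, is not given in the sources used here. Each region's deposited signal score has no stated scale and was used only for ranks. The deposited −log10 q-value was converted to a q-value, and the authors' summit offset gave the summit. Read depth is unknown, so it limits every absence of a region to an unknown degree.

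Genes came from Ensembl release 115 and sequences from release 6 of the genome. Each summit was given to every gene with it in the body or 1 kb upstream. The share over genes of like length averages, over members, the share in the member's one of 20 length bins, with no draw and no test. Assignment was checked on simulated data. The members and lists were chosen with earlier results of these data known. By a fixed rule every member is named, those without an IDR summit with their strongest region where unnumbered or numbered 1 and otherwise briefly, plus neighbours sharing a summit and a fixed list of 13 related genes, of which VhaM8.9 was matched by synonym. Alternatives changed the region list, assignment, upstream length, length matching, overlap and replicates. The code ran under Python 3.11.15 with SciPy 1.17.1, NumPy 2.4.6 and, for plots, matplotlib 3.10.9.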

Additional observations from a re-analysis of the deposited data

How the results depend on the processing

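Of 54 alternative values, 32 moved little and 22 moved. The count of 2 V-ATPase genes was 1 with the 2841 strongest IDR regions, 4 with pooled regions of q under 0.05, 1 when summits of more than 1 gene were left out, 3 by the nearest start site (Vha100-5, Vha16-1 and VhaAC45RP) and 3 by any overlap (Vha100-2, Vha14-1 and Vha16-1). It stayed 2, for Vha100-2 and Vha16-1, in the alternatives called without 1 replicate here. These kept the IDR regions that overlapped a strongest region of each of the 2 other replicates. The IDR list itself still came from all 3 replicates, so this count could stay or fall but not rise. Within 1 kb of a start site the count was also 2, but for Vha100-2 and Vha14-1. The share of genes of like length, 19.0%, was 12.7% with those 2841, 25.2% with pooled q under 0.05, 17.4% within 1 kb of a start site, 20.1% by any overlap, 17.7% with 500 bp upstream, 21.8% with 2 kb, 8.51% for summits of 1 gene only, 22.3% without matching and 15.8 to 16.3% without 1 replicate. The count of 1 among genes unnumbered or numbered 1 was 0 with those 2841, 3 with pooled q under 0.05, 2 by the nearest start site and 2 by any overlap; without 1 replicate it was 1 in each case. The count of 1 among those numbered 2 and above was 0 for summits of 1 gene only. The 4 member regions held by all replicates numbered 3 with an overlap of 50% of both regions and 1 with the 2841 strongest regions of each replicate. The replicate mean of 3.00 members was 4.33 at q under 0.05, 10.7 over all regions and 2.50 to 3.50 as a mean over 2 replicates with the other left out. The cause was not tested, except that shorter lists hold fewer summits by construction. No paired analysis was possible because there is 1 group. Read depth, which is unknown, limits every absence.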
